A study of Homo sapiens with 12 samples.

Results

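The unfolded protein response reads the load of unfolded protein in the lumen of the endoplasmic reticulum (ER) and passes it to the nucleus. The 8 genes described here encode its sensors, the proteases that release its membrane-bound factors, and its transcription factors: ERN1 (the kinase and endoribonuclease IRE1), XBP1, EIF2AK3 (the kinase PERK), ATF6, ATF6B, CREB3L2, MBTPS1 (site-1 protease) and MBTPS2 (site-2 protease). They were taken as a list of symbols by their known roles, with no measured value in the rule, though with earlier results of these data known, and all 8 were found among the 54127 genes of the count files and among the 14501 genes with enough reads to be tested.

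Cells were C4-2, a human castration-resistant prostate cancer line derived from LNCaP. TruSeq RNA libraries were made from cells transfected with a pool of small interfering RNAs (siRNAs) against choline kinase alpha (siCHKA, n = 6) and from cells given a nontargeting siRNA (siNT, n = 6). Both groups were reverse transfected, at 50 nM by the labels, in medium with serum, so each value compares 2 transfected populations. The series was made to ask how loss of CHKA, which phosphorylates choline in the Kennedy pathway of phosphatidylcholine synthesis, changes the transcriptome; the siRNA sequences and the time of harvest for these libraries are not given in the sources used here.

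ER stress is sensed along 3 branches. IRE1 is a transmembrane kinase whose cytosolic nuclease cuts a short intron out of XBP1 mRNA, and the religated mRNA encodes the active transcription factor. PERK phosphorylates eIF2 alpha, which lowers general translation while letting ATF4 mRNA be translated. ATF6 and ATF6B travel to the Golgi, where site-1 and then site-2 protease cut them and free a transcription factor, and CREB3L2 is released by the same proteases. In secretory epithelium such as that of the prostate, XBP1 and ATF6 drive genes for chaperones, translocation and degradation of ER proteins.

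The site that IRE1 acts on in XBP1 mRNA is shown because gene counts cannot tell its cut and uncut forms apart. It lies at chr22:28796124-28796153 on the minus strand of GRCh38. The site is written as the mRNA reads, 5′ to 3′, with 4 bases that repeat at both ends in capitals. Whether the repeat runs beyond these 4 bases was not examined. As annotated, the intron is the 26 bases from chr22:28796128-28796153, and it is removed in 1 of 6 XBP1 transcripts. Because the ends repeat, a shift of this window within the repeat leaves the same mRNA. The annotated ends therefore do not fix the bases at which IRE1 cuts.
XBP1 intron and repeat: GCAGcactcagactacgtgcacctctGCAG

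Promoters of the members and of their target genes were searched on both strands for the ER stress response element (ERSE, the letters CCAAT, then 9 bases of any kind, then CCACG), which ATF6 and the factor NF-Y read together, for the UPR element core TGACGTGG and for the cAMP response element (CRE) TGACGTCA. RefSeq promoters on GRCh38.p14 were used, from 250 bases before to 50 bases after each start. ERSE was found in 0.0769% of all 35116 promoters, the UPR element core in 0.729% and CRE in 1.85%. Among the members only XBP1 held ERSE and only CREB3L2 held CRE. The lines give these 2, an ERSE from each of 3 chaperone genes in the lists below and the UPR element core of SEC23A. Motif letters are in capitals, on the strand of the gene, which is minus for all but HSP90B1. HSP90B1 held another ERSE match that is not printed.
XBP1 ERSE, chr22:28800598-28800626: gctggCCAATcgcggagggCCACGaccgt
HSPA5 ERSE, chr9:125241386-125241414: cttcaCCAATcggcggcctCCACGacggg
HSP90B1 ERSE, chr12:103930211-103930239: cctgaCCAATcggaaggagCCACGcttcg
PDIA6 ERSE, chr2:10812848-10812876: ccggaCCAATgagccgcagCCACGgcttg
CREB3L2 CRE, chr7:138002253-138002270: ctcggTGACGTCAcagac
SEC23A UPR element core, chr14:39103227-39103244: cctctTGACGTGGcagag
The XBP1 match starts 52 bases before the RefSeq start site. A match is a description of the letters and not a measured binding site.

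Before the members, the libraries were checked. Reads on genes ranged from 10685184 to 24246055 per library, so 3 reads correspond to 0.124 to 0.281 CPM (reads on a gene for every 1000000 on all genes; scaled between libraries by edgeR's TMM for all gene levels given here). The TMM scaling factors were 1.02 to 1.07 in siCHKA and 0.922 to 0.965 in siNT, without overlap. Small fold changes therefore depend on this scaling. CHKA was at 2.75 ± 1.03 CPM (SD, n = 6) in siCHKA and at 40.7 ± 2.55 CPM in siNT, or 6.76% of the siNT mean. Of the genes tested by edgeR, 30.1% were lower and 32.1% higher after siCHKA at an adjusted p below 0.05, with a median log2 fold change of 0.04. Summed levels of 10 prostate luminal markers ranged from 4654 to 5814 CPM in siCHKA and from 5673 to 7174 CPM in siNT, with 7 lower and 3 higher. The 5 fibroblast markers summed to 24.2 to 30.6 CPM against 11.7 to 19.1 CPM, and of these only COL1A1 had enough reads to be tested. The 5 leukocyte markers summed to 4.20 to 6.21 against 2.82 to 4.28, with CD3E and MS4A1 at 0. The basal, endothelial and neuroendocrine lists stayed at or below 3.65 CPM in every library. The siCHKA libraries fell into 2 sets, replicates 1, 3 and 5 and replicates 2, 4 and 6. Deviations from the group mean correlated at 0.201 to 0.443 within sets and at -0.605 to -0.446 between them, across genes that are not independent replicates. Taking the mean of the same 6 libraries away lowers the correlations among them, so part of the negative range is built in. The labels give no reason for the sets, and some values below are given by set. Because the sets were seen in the expression of these same libraries, p-values from 1 set alone may be too small. They are given as a description.

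Of the 8 members, 5 were lower after siCHKA and none was higher (62.5% lower), against 30.1% lower, 32.1% higher and 62.2% in either direction for all genes tested. The 5 were EIF2AK3, a sensor kinase, and the 4 transcription factors XBP1, ATF6, ATF6B and CREB3L2. ERN1, MBTPS1 and MBTPS2 did not pass the threshold. The median log2 fold change of the 8 was -0.45, against 0.04 for all genes tested. In bulk RNA a lower level per cell and a smaller share of cells that express a gene cannot be told apart.

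Within the IRE1 branch the transcription factor moved and the sensor did not pass the test. XBP1 (ENSG00000100219, chr22:28794555-28800597, minus strand) was at 176, 207 and 226 CPM (lowest, median and highest library) in siCHKA and at 335, 342 and 385 CPM in siNT. The groups did not overlap, as was so for 21.5% of all genes tested in the lower direction, 19.1% in the higher and 40.6% in either. Its log2 fold change was -0.76 (SE 0.07, adjusted p 2.34e-08, edgeR's quasi-likelihood test with Benjamini-Hochberg adjustment), leaving 58.8% of the siNT mean. XBP1 was lower in siCHKA replicates 1, 3 and 5, at 176 to 198 CPM, than in replicates 2, 4 and 6, at 216 to 226 CPM, and each set was below every siNT library.

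ERN1 (ENSG00000178607, chr17:64039080-64130819, minus strand), which encodes the nuclease that splices XBP1, was at 18.2, 20.4 and 21.5 CPM in siCHKA and at 18.1, 19.5 and 25.6 CPM in siNT. The groups overlapped, the log2 fold change was -0.06 (SE 0.09) and the adjusted p by edgeR was 0.588. ERN1 was the lowest of the 8 members per length of transcript in both groups.

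In the PERK branch the sensor was lower. EIF2AK3 (ENSG00000172071, chr2:88556741-88691518, minus strand) was at 29.0, 32.3 and 34.6 CPM in siCHKA and at 43.2, 51.7 and 54.6 CPM in siNT, without overlap. Its log2 fold change was -0.64 (SE 0.07, adjusted p 2.81e-07 by edgeR), or 64.1% of the siNT mean. A gene on the other strand covers 3.77% of its exon bases, and whether reads were counted by strand is not given in the sources used here.

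ATF6 (ENSG00000118217, chr1:161766298-161977574, plus strand) was at 61.0, 63.3 and 69.5 CPM in siCHKA and at 72.4, 82.3 and 91.2 CPM in siNT. The groups did not overlap and the log2 fold change was -0.37 (SE 0.06, adjusted p 4.06e-05 by edgeR), or 77.5% of the siNT mean.

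ATF6B (ENSG00000213676, chr6:32115264-32128253, minus strand), the paralog of ATF6, had the largest fall of the 8 members in this fit. It was at 10.2, 15.9 and 22.4 CPM in siCHKA and at 28.4, 35.0 and 41.2 CPM in siNT, without overlap, for a log2 fold change of -1.11 (SE 0.18, adjusted p 4.77e-05 by edgeR) and 46.1% of the siNT mean. The siCHKA libraries split into the 2 sets: replicates 1, 3 and 5 were at 10.2 to 11.5 CPM and replicates 2, 4 and 6 at 20.2 to 22.4 CPM. Against all siNT libraries the log2 fold change was -1.70 with the first set alone and -0.72 with the second, so the size but not the direction depended on the set. The standard deviation of log2 CPM in siCHKA was 0.54, at the 97.6th percentile of all genes tested. ATF6B lies in the major histocompatibility region, and 9.92% of its exon bases are shared with other genes on the same strand. These are the neighboring gene TNXB and a gene that is not in the count files.

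The ratio of ATF6 to ATF6B was 1 of 3 ratios compared, chosen with earlier results of these data known. It was 4.24 in siCHKA and 2.40 in siNT (geometric means, n = 6 each), a difference of 0.82 on the log2 scale, with a two-sided exact permutation p of 0.0108 (adjusted over 3 ratios: 0.0108). The ranges overlapped, at 2.71 to 6.73 in siCHKA and 1.76 to 3.18 in siNT, and with replicates 2, 4 and 6 alone the difference was 0.29 (exact permutation p = 0.143). The ERN1 to EIF2AK3 ratio, which compares 2 sensors, was 0.627 in siCHKA and 0.417 in siNT, a log2 difference of 0.59 (exact permutation p = 0.00216, adjusted 0.00649), without overlap. A p of 0.00216 is the smallest that 6 against 6 libraries can give.

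CREB3L2 (ENSG00000182158, chr7:137874979-138002086, minus strand), a factor of the secretory pathway whose promoter held the CRE shown above, was at 140, 155 and 163 CPM in siCHKA and at 189, 213 and 255 CPM in siNT, without overlap. Its log2 fold change was -0.53 (SE 0.08, adjusted p 2.28e-05 by edgeR), or 69.0% of the siNT mean. Its fall was seen in both sets of siCHKA libraries, at -0.46 with replicates 1, 3 and 5 and -0.62 with replicates 2, 4 and 6.

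The 2 proteases that activate ATF6, ATF6B and CREB3L2 did not pass the threshold. MBTPS1 (ENSG00000140943, chr16:84053761-84116942, minus strand), which cuts first, was at 91.8, 98.3 and 109 CPM in siCHKA and at 96.0, 101 and 107 CPM in siNT, with a log2 fold change of -0.03 (SE 0.05, adjusted p 0.592 by edgeR). MBTPS2 (ENSG00000012174, chrX:21839617-21885423, plus strand), which cuts second within the membrane, was at 102, 111 and 133 CPM in siCHKA and at 96.7, 101 and 116 CPM in siNT, with a log2 fold change of 0.16 (SE 0.07, adjusted p 0.0609 by edgeR). With replicates 1, 3 and 5 alone MBTPS2 was higher, by 0.31 (adjusted p 0.000764), and with replicates 2, 4 and 6 alone it was at 0.00 (adjusted p 0.971), so this value rests on the first set. The MBTPS1 to MBTPS2 ratio was 0.869 in siCHKA and 0.992 in siNT, a log2 difference of -0.19 (exact permutation p = 0.00649, adjusted 0.00974), with overlapping groups. By library this ratio was 0.794 to 0.854 in siCHKA replicates 1, 3 and 5 and 0.897 to 0.926 in replicates 2, 4 and 6. In siNT it ranged from 0.918 to 1.03. YY2 and a small noncoding RNA overlap 13.4% of the annotated MBTPS2 exon bases.

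**Figure D1:**
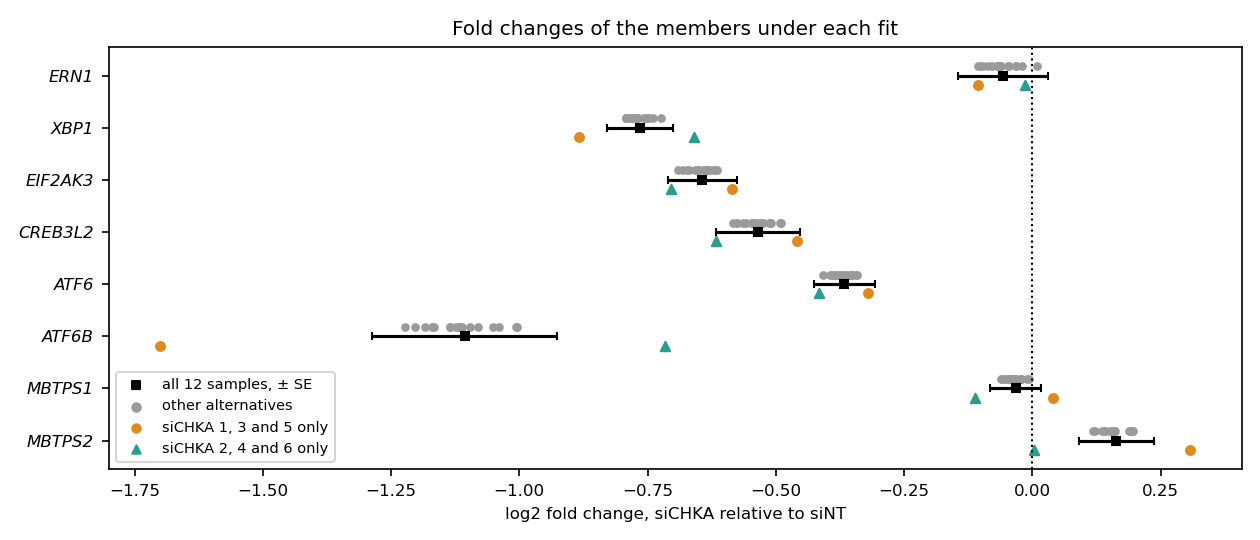
Log2 fold change of each of the 8 members, siCHKA relative to siNT, with all 12 libraries (squares, bars ± SE, edgeR), with siCHKA replicates 1, 3 and 5 alone (orange circles), with replicates 2, 4 and 6 alone (triangles) and under the other alternatives (gray). ATF6B is at -1.70 and MBTPS2 at 0.31 with replicates 1, 3 and 5 alone, and at -0.72 and 0.00 with replicates 2, 4 and 6 alone.

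Levels between genes were compared per kilobase of the canonical transcript. In siNT XBP1 was far above the rest at 196 ± 11.4 CPM per kb (SD, n = 6). CREB3L2 followed at 29.5 ± 4.25, then MBTPS1 at 23.3 ± 0.92 and MBTPS2 at 23.2 ± 1.56, the last 2 not differing beyond their spread. ATF6B at 13.2 ± 1.65, ATF6 at 11.1 ± 0.95 and EIF2AK3 at 11.0 ± 1.05 lay within their spread of each other, and ERN1 was lowest at 2.65 ± 0.41. After siCHKA XBP1 was at 115 ± 11.2 CPM per kb and CREB3L2 at 20.4 ± 1.33, below MBTPS2 at 26.0 ± 3.18 and overlapping MBTPS1 at 22.8 ± 1.46. ATF6 was at 8.63 ± 0.46, EIF2AK3 at 7.06 ± 0.46, ATF6B at 6.09 ± 2.22 and ERN1 at 2.54 ± 0.15. XBP1 stayed first and ERN1 last with the length of all merged exons, but that length set CREB3L2 above both proteases in both groups and changed the distances among ATF6B, ATF6 and EIF2AK3.

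The members' targets, substrates and partners were taken from 10 lists of pathway genes, chosen with earlier results of these data known. Of the 139 distinct genes in them that were tested, 87 were lower and 17 higher after siCHKA, where 30.1% of all genes were lower and 32.1% higher; 11 genes stood in more than 1 list.

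The chaperones and folding enzymes that ATF6 and XBP1 regulate fell most broadly, with 17 of 20 lower and 1 higher (median log2 fold change -0.71). MANF, a secreted ER stress protein, was at 96.0 ± 6.87 CPM in siCHKA and 276 ± 9.59 in siNT, with a log2 fold change of -1.52. PDIA4, a protein disulfide isomerase, had a log2 fold change of -1.51 and HYOU1, an HSP70-like ER chaperone, of -1.17. HSPA5, the chaperone BiP that binds the sensors, was at 1172 ± 24.6 CPM in siCHKA and 2487 ± 184 CPM in siNT, a log2 fold change of -1.09. The exception was SIL1, the nucleotide exchange factor of HSPA5, at 0.17 (adjusted p 0.0363), a call lost in 11 of 19 alternatives. All 7 chaperone genes whose promoter held ERSE were lower (median -0.90), as were 8 of the 11 with a promoter and no ERSE (median -0.57). MANF, PDIA4 and HYOU1, with the largest falls of the list, were among those with no ERSE. HYOU1 and SDF2L1, counted there, held the variant ERSE-II (ATTGG, any base, CCACG), which was also searched. Matches were to the exact letters within the promoter window given above. ERSE with other letters or farther from the start was therefore not counted. Whether ERSE goes with a larger fall was not tested. Over all tested genes, 16 had ERSE, of which 12 were lower and 3 higher, where 30.1% of all genes were lower and 32.1% higher. The 16 include the 7 chaperones and XBP1, so this count is not a separate one.

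In the ER-associated degradation list 14 of 20 genes were lower and 1 higher (median -0.29). UBE2J1, a ubiquitin-conjugating enzyme of the ER, had a log2 fold change of -0.81, and SELENOS and FAF2, which hold the extraction machinery at the membrane, had -0.59 and -0.58. Among 22 XBP1 targets of the secretory pathway 14 were lower and 1 higher (median -0.28). SEC61A1, the pore of the translocon, was at -0.95, SRPRA, the signal recognition particle receptor, at -0.77 and SEC24D, a COPII coat subunit, at -1.06 on the log2 scale. SRP54, the GTPase of the signal recognition particle, rose by 0.34.

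The PERK and ATF4 list showed both directions, with 9 of 20 lower and 6 higher (median -0.07). ATF4 was at 245 ± 40.7 CPM in siCHKA and 414 ± 28.4 CPM in siNT, with a log2 fold change of -0.76 (adjusted p 1.75e-06). TRIB3, a pseudokinase induced with it, was at -0.75 and HERPUD1, an ER membrane protein of degradation, at -0.66. All 3 fell with either set of siCHKA libraries, more so with replicates 1, 3 and 5 (-0.99, -1.03 and -0.95 in that order) than with replicates 2, 4 and 6 (-0.56, -0.52 and -0.42). PPP1R15A, the regulatory subunit that directs phosphatase to eIF2 alpha, was at 6.70 ± 0.68 CPM in siCHKA and 4.60 ± 0.55 CPM in siNT and rose by 0.54, VLDLR rose by 0.34 and ATF5 by 0.22, the last not with replicates 1, 3 and 5 alone. DDIT3, which encodes CHOP, was split by set: 35.5, 32.7 and 32.0 CPM in siCHKA replicates 1, 3 and 5 and 52.4, 56.5 and 52.9 CPM in replicates 2, 4 and 6, on either side of the siNT range of 38.3 to 45.5 CPM. Its log2 fold change was 0.10 over all (adjusted p 0.539), -0.29 with the first set (adjusted p 0.00193) and 0.39 with the second (adjusted p 6.93e-05). In 19 of the list's 20 genes the value was lower with replicates 1, 3 and 5 than with replicates 2, 4 and 6. The same share for all genes tested is not given here, so whether 19 of 20 is particular to this list was not tested. The counts for the list were 13 lower and 3 higher with the first set and 5 lower and 9 higher with the second. The direction of this list therefore depended on which libraries were used. Over all genes tested, slightly more genes were higher than lower with either set. Across the 19 alternatives, which include both sets, the lower genes numbered 4025 to 4686 and the higher genes 4282 to 4781. Whether the shift between sets is larger for this list than for other genes was not tested.

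Genes of eIF2 alpha phosphorylation also went both ways, with 6 of 16 lower and 3 higher (median -0.07). EIF2S1, which is eIF2 alpha itself, had a log2 fold change of -0.82, EIF2B3, a subunit of its exchange factor, of -0.72 and DNAJC3, an inhibitor of PERK, of -0.54. EIF2AK2, the kinase PKR, was at 0.20 (adjusted p 0.0100) and EIF2B5 at 0.15 (adjusted p 0.00413), each a call lost in 1 alternative.

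Of 14 tested partners of IRE1, 9 were lower and none higher (median -0.25), with HSPA5, SEC61A1 and PDIA6 (log2 fold changes -1.09, -0.95 and -0.81) at the smallest p. Of 9 tested transcripts cut in IRE1-dependent decay in other cells, 6 were lower and 2 higher (median -0.49). SCARA3, a scavenger receptor, had a log2 fold change of -0.94, IGFBP2 of -0.54 and FERMT2 of -0.49, while COL6A1, a collagen chain, rose by 0.96 and HGSNAT, a lysosomal enzyme, by 0.38. Summed fibroblast marker levels were also higher in siCHKA, as given above, though only COL1A1 of those markers had enough reads to be tested. Their part in the COL6A1 value was not tested.

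In the CREB3 family and its targets 5 of 8 genes were lower and 3 higher (median -0.20). SEC23A, a COPII coat subunit that CREB3L2 regulates and whose promoter held the UPR element core, was at 41.7 ± 1.98 CPM in siCHKA and 275 ± 10.3 in siNT, a log2 fold change of -2.72 that was the lowest in these lists. Its paralog SEC23B was at -0.16 (adjusted p 0.00514), a call not reached with replicates 1, 3 and 5 alone. CREBRF, which promotes degradation of CREB3, rose by 0.71 and CREBZF by 0.32, and CREB3 was at 0.18 (adjusted p 0.0361), a call lost in 10 of 19 alternatives. CREB3L4 was at -0.23 (adjusted p 0.0248), a call lost in 5 of 19, with -0.44 from replicates 1, 3 and 5 alone and -0.06 from replicates 2, 4 and 6. CREB3L1, at 0.549 CPM in siCHKA and 0.391 CPM in siNT, was not tested, and CREB3L3 had 0 reads in all 12 libraries.

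The substrates and partners of the proteases were lower in 7 of 10 tested genes and higher in 2 (median -0.35). GNPTAB, a site-1 protease substrate that tags lysosomal enzymes, had a log2 fold change of -0.83, INSIG1, which holds SREBP in the ER, of -0.73, and SREBF1, a substrate of both proteases, of -0.41, while LRP1, an endocytic receptor, rose by 1.24. INSIG1 was at -0.57 with siCHKA replicates 1, 3 and 5 alone and at -0.91 with replicates 2, 4 and 6. Of 9 tested ATF6 cofactors 7 were lower and none higher (median -0.49), with NFYB, a histone-fold subunit of NF-Y, at -0.88, TXNDC12 at -0.74 and YY1 at -0.71 on the log2 scale.

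An siRNA can also lower transcripts whose 3′ untranslated region matches its seed. The pool's sequences are not given, and earlier work on these data had named 2 words of 7 bases, GCCAGAT and TGCCCTT, after seeing which genes fell. XBP1 held TGCCCTT once in its canonical 3′ untranslated region, and ATF6, ERN1 and SEC23A held GCCAGAT once each. EIF2AK3, CREB3L2, ATF6B, MBTPS1 and MBTPS2 held neither, nor did HSPA5, ATF4, MANF, PDIA4 or HYOU1. Over 12297 genes with such a region, the median log2 fold change was -0.12 where at least 1 of the words was present, with 44.3% of genes lower, and 0.04 where both were absent, with 30.3% lower. The part of these words in the values of XBP1, ATF6 and SEC23A was not tested.

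The genes most like each member over the 12 libraries, by Pearson r of log2 CPM among the 9492 tested genes averaging 10 CPM or more, are given as a description, since the groups themselves set most of the likeness. For XBP1 they were ZNF544 and TMEM123 (0.995 each) and CCDC50 (0.993), and 1591 genes were above 0.9. For EIF2AK3 they were SMC5 (0.987), TERF2IP and ZFAND3 (0.985 each), with 1450 genes above 0.9. For ATF6 they were CCNY (0.977), RAB31 and INSIG1 (0.973 each). For ATF6B, whose siCHKA libraries fell into 2 sets, they were C19orf48P (0.992), CEP95 (0.989) and FKBP11 (0.986), the last a folding enzyme of the secretory pathway. For CREB3L2 they were HIPK1 (0.988), TNKS and DPP8 (0.986 each). The members that did not pass the test had fewer companions: ERN1 had 0 genes above 0.9, its nearest being ZMIZ1 (0.847), ATP8B2 (0.836) and ZKSCAN8 (0.813), MBTPS1 had 18, led by MID2 (0.966), HDLBP (0.928) and ACLY (0.922), and MBTPS2 had 81, led by ITGA6 and ZFYVE9 (0.963 each) and MIER3 (0.962).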

How the data were processed

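RNA of C4-2 cells was sequenced from TruSeq libraries. The labels name flow-sorted cells and the miRNeasy kit, whereas the study's methods name the Allprep kit and mention no sorting. The authors aligned reads with TopHat2 2.0.4 to GRCh37 and counted them per Ensembl gene with HTSeq 0.5.3p9, as named in the submitters' processing notes (which also list DESeq 1.10.1), and deposited raw counts per gene in 4 files per sample. The 4 were summed here, since they differed by no more than sampling noise. HTSeq's special rows were left out of library sizes: per library they held no feature (3.95% to 5.97% of all entries), several alignments (26.1% to 30.6%) and ambiguous reads (2.82% to 2.93%). Genes were named through their Ensembl identifiers from GENCODE release 44, and coordinates are those of GRCh38, not of the authors' alignment. The labels do not say whether the 6 libraries of a group came from separate cultures. The study's legends call the replicates biological but differ in their number, so p-values measure the spread between these libraries, some of which may be technical.

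Genes passing edgeR's filter on expression (14501) were fitted with the TMM scaling and the quasi-likelihood test of edgeR 4.0.16 (R 4.3.3), group as the only term, all 12 samples, and Benjamini-Hochberg adjustment at 0.05. Ratios of 2 genes were compared with two-sided exact permutation tests on log2 CPM with a prior count of 2. On simulated data with 200 genes changed 2-fold, edgeR recovered 93% and made 4 false calls. The simulation changed few genes and held no sets of libraries. In the real data 62.2% of genes were called and the siCHKA libraries fell into 2 sets. The simulation therefore does not give the error rate of these calls. Alternatives were RLE scaling, DESeq2 1.42.0, other filters, a replicate block, each library left out, and either set of siCHKA libraries left out. The members, the ratios and the lists were chosen with earlier results of these data known. Named genes were the members, the 3 smallest p values in each direction within each list, some genes fixed by name (ATF4, DDIT3, PPP1R15A, the CREB3 family, HSPA5, SEC23A, SEC24D) and the 3 genes most correlated with each member. The values of 1 gene that this rule names are not reported here.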

Additional observations from a re-analysis of the deposited data

How the results depend on the processing

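XBP1, EIF2AK3, ATF6, ATF6B and CREB3L2 were lower in all 19 alternative fits, including the replicate block, and counts of all lower genes ranged from 4025 to 4686 and of higher genes from 4282 to 4781. The number of members higher was 0, but 1 with at least 10 counts in every sample and with siCHKA replicates 1, 3 and 5 alone, and 0 to 1 when single libraries were left out; in each case the gene was MBTPS2, at 0.19 (adjusted p 0.029) with the 10-count filter, 0.31 with that set alone, and 0.12 to 0.20 without single libraries, passing without siCHKA replicate 2, 4 or 6 or siNT replicate 4. ERN1 was at 0.0084 without siNT replicate 5 (-0.11 to 0.01 over single libraries left out), and MBTPS1 at 0.041 with siCHKA replicates 1, 3 and 5 alone. DDIT3 was at -0.29 with that set. Same-numbered libraries did not deviate together (r -0.396 to 0.321, and 1 of 6 siCHKA libraries correlated best with its own number in siNT), so the numbers were not taken as pairs; with the replicate block, 5 members remained lower and 0 higher, and the ATF6 to ATF6B difference was 0.82 with an exact sign-flip p of 0.0625. It was 0.29 with siCHKA replicates 2, 4 and 6 alone. Of 44 genes named from the lists, 35 kept their call and direction under every alternative and 9 gained or lost the call under at least 1, among them DDIT3, which also reversed; the genes named for their likeness to a member were not followed across the alternatives. Per kilobase of all merged exons, the siNT levels were 116 CPM for XBP1, 24.9 for CREB3L2, 11.5 for MBTPS2, 9.93 for MBTPS1, 9.57 for ATF6B, 5.83 for ATF6, 2.41 for EIF2AK3 and 1.09 for ERN1, an alternative chosen after seeing the data; the cause of these changes is the longer length used. Gene counts cannot show XBP1 splicing, PERK phosphorylation or cleavage of ATF6.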
